A study of Mus musculus with 6 samples.

Results

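Sirtuins and nuclear co-repressor scaffolds were followed in mouse peritoneal macrophages that lacked Tet2 or were wild-type. The members were the sirtuin genes Sirt1, Sirt2, Sirt3, Sirt5, Sirt6 and Sirt7 and the co-repressor genes Sin3a, Ncor1 and Rcor1, chosen by gene symbol. Of these 9 genes, 8 had a feature named by the platform annotation, out of 25206 features in all, and Ncor1 was not analysed here. The macrophages were drawn into the peritoneal cavity by thioglycollate broth (1 mL of 4%, 4 days). They came from 3 Tet2-/- mice and 3 wildtype littermates, all on the C57BL/6J background. Fetal bovine serum was at 10% for every culture. Cells of both genotypes were exposed to lipopolysaccharide (10 ng/mL), a bacterial product that activates toll-like receptor 4, and to interferon gamma (2 ng/mL) for 10 h. Every value thus describes stimulated cells, and no unstimulated culture was measured. The labels do not give the ages of the mice, the part of Tet2 that was deleted or a cell type to which the loss was limited. Each culture gave 1 array, with levels as log2 expression.

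Sirtuins are deacylases that use NAD+ as a co-substrate, so their activity is tied to the metabolic state of the cell as well as to their amount. Sirt1, Sirt6 and Sirt7 act mainly in the nucleus, Sirt2 mainly in the cytosol, and Sirt3 and Sirt5 mainly in mitochondria. Sin3a and Rcor1 have no catalytic activity of their own: they are scaffolds that carry the zinc-dependent deacetylases Hdac1 and Hdac2 to DNA-bound factors, Rcor1 together with the demethylase Kdm1a. In macrophages such complexes, and Sirt1 through the NF-kB subunit p65, are known to restrain inflammatory genes. Tet2 oxidises 5-methylcytosine, which in mammals lies mostly in CpG dinucleotides, and is also known to recruit Hdac2 to the Il6 gene.

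The 250 bases upstream of the transcription start are shown for Sirt1, Rcor1 and Sirt2, the members with the smallest p in the comparison of genotypes. They are printed because the methylated cytosines that Tet2 oxidises lie mostly in CpG dinucleotides, which are marked in capitals. Whether any CpG dinucleotide printed here is methylated or acted on by Tet2 was not tested. The sequences are those of RefSeq for build GRCm38.p6, written 5′ to 3′ along the gene's strand. The probes of the array are not placed on them.
Sirt1 promoter (chr10:63339036-63339285, minus strand): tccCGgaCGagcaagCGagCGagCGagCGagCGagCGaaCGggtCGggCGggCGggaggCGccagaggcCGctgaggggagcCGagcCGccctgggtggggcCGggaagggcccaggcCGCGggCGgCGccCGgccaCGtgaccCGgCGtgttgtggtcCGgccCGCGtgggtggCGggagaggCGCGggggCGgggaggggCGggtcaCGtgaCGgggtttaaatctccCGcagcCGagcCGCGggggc
Rcor1 promoter (chr12:111039117-111039366, plus strand): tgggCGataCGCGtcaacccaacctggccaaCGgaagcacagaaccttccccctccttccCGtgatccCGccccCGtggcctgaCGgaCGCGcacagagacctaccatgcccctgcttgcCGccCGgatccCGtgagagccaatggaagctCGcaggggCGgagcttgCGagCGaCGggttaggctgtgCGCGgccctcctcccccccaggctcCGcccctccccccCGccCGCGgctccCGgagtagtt
Sirt2 promoter (chr7:28766502-28766751, plus strand): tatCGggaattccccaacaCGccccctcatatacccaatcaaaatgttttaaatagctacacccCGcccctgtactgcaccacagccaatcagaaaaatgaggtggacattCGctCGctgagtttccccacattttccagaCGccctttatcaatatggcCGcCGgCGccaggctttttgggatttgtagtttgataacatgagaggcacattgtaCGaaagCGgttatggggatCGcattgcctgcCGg
All 8 measured members matched the RefSeq promoter table, with 11 windows in all, since Sirt3, Sirt6 and Sin3a have more than 1 start. The Sirt1 window held 39 CpG dinucleotides, more than 98.4% of the 32841 windows of this length in the table. The Rcor1 window held 25 and the Sirt2 window 13. Over the 11 member windows the count ran from 12 to 39 with a median of 18, against a median of 6 over all windows. The motif CACGTG, which reads the same on both strands and contains a CpG, was found 2 times in the Sirt1 window and in no other member window. It occurred in 6.02% of all windows. These counts describe sequence and not methylation, which was not measured here.

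Arrays of the same genotype correlated over all features with r between 0.989 and 0.991 in the Tet2-deficient group and between 0.988 and 0.990 in the wild-type group, against 0.983 to 0.987 between genotypes. As a check of the labels, the signal for Tet2 itself stood at 5.55, 5.25 and 5.75 in Tet2-deficient arrays and 5.40, 5.07 and 5.10 in wild-type arrays (log2 change 0.32 ± 0.16, limma adjusted p = 0.365), so loss of the transcript was not seen. Where the probes lie relative to the deletion is not known here, and probes outside it check nothing. Directions therefore depend on the genotype labels alone. Defining macrophage genes were bright, with mean log2 levels of 9.41 to 10.7 over the 7 measured of 9 listed, against a median of 3.55 over all features. Of these 7 genes 2 rose, the lipopolysaccharide co-receptor Cd14 (log2 change 0.97 ± 0.13) and the integrin Itgam (0.97 ± 0.14). Changes were above 0 for 5 of the 7, with Csf1r (0.58 ± 0.11), Adgre1 (0.15 ± 0.11) and Cd68 (0.002 ± 0.11) above 0 but not called. Fcgr1 (-0.51 ± 0.19, limma adjusted p = 0.230) and Mertk (-0.10 ± 0.12) lay below 0. Of 8 markers of resident peritoneal macrophages 1 rose, the phosphatidylserine receptor Timd4 (1.19 ± 0.17). Markers of neutrophils, B cells, T and NK cells, mast cells and eosinophils, dendritic cells, and mesothelium and fibroblasts gave 0 calls. Among the last of these, the fibroblast proteoglycan Dcn was higher in every Tet2-deficient array than in any wild-type array (log2 change 1.26 ± 0.28, limma adjusted p = 0.0715), while the summed signal of the 9 markers, 171 to 433 in Tet2-deficient and 149 to 216 in wild-type arrays, overlapped. The summed linear signal of the 8 resident markers was 785 to 972 in Tet2-deficient arrays and 404 to 568 in wild-type arrays, without overlap, and all 8 had a positive change. Timd4, with the highest mean level of the 8 (8.64), weighs most in this sum. Groups did not overlap for 5 of the 8, where 31.1% of features at or above the median level had such groups in either direction. They overlapped for Gata6 (0.23 ± 0.21), Garnl3 (0.13 ± 0.16) and Selp (0.07 ± 0.13). In RNA of a whole culture, a different share of cells of a type and a different amount of RNA per cell cannot be told apart, and the part of these marker differences in the values below was not tested.

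The comparison asked whether the genes of these chromatin and NAD-dependent regulators differ in level between stimulated macrophages with and without Tet2. In the limma fit over all features, 0 of the 8 members passed a Benjamini-Hochberg adjusted p of 0.05, with adjusted p from 0.307 to 0.936, against 0.952% of all features. Nor did any have an adjusted p under 0.25, where 12.0% of all features lay. At an unadjusted p under 0.05 there was 1 member, Rcor1, where 16.0% of all features lay. Log2 changes (Tet2-deficient minus wild-type, given with the fit's standard error, n = 3 arrays each) ran from -0.19 to 0.30, and 6 of 8 were above 0. The median over the 8 members was 0.15, against -0.04 over all features and -0.01 over features at or above the median level. Seen array by array, 4 members had groups that did not overlap, all of them higher in Tet2-deficient arrays (Sirt1, Sirt2, Sin3a and Rcor1). Groups did not overlap in that direction for 9.74% of all features and for 16.6% of those at or above the median level, where all 8 members lie. In either direction, the measure used for the lists below, the shares were 22.0% and 31.1%.

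**Figure D1:**
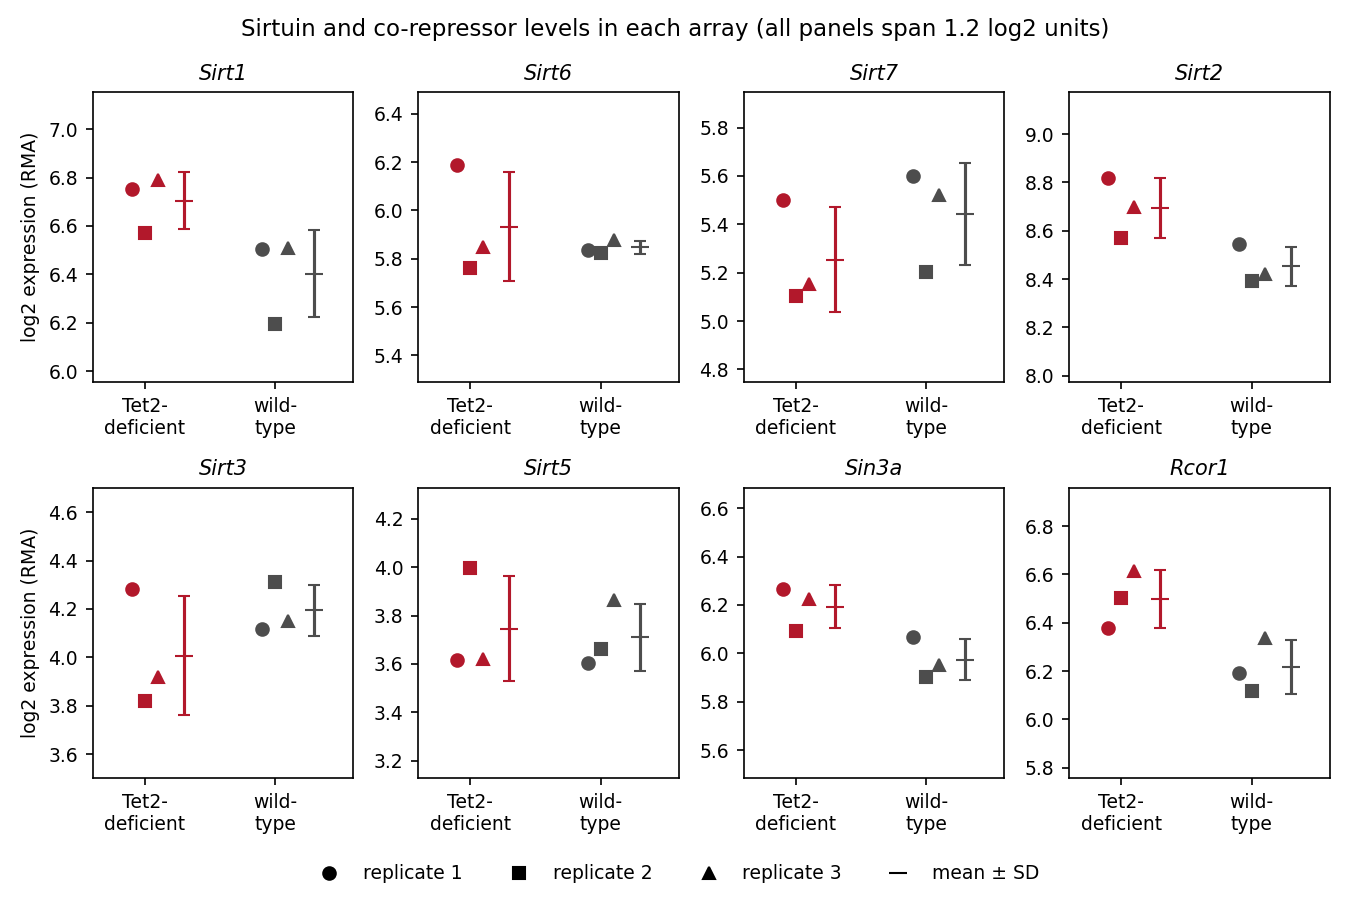
Log2 expression (RMA) of the 8 measured members in each array, with Tet2-deficient arrays in red on the left and wild-type arrays in grey on the right of each panel; symbols mark the replicate and bars the mean ± SD (n = 3). The groups do not overlap for Sirt1, Sirt2, Sin3a and Rcor1 and overlap for Sirt3, Sirt5, Sirt6 and Sirt7.

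Among the nuclear sirtuins, Sirt1, which deacetylates histones, p65 and FOXO factors, had log2 levels of 6.75, 6.57 and 6.79 in Tet2-deficient arrays and 6.50, 6.20 and 6.51 in wild-type arrays. Its lowest Tet2-deficient array lay just above its highest wild-type array. The mean level was 6.70 ± 0.12 in Tet2-deficient and 6.40 ± 0.18 in wild-type macrophages (SD, n = 3 each). The log2 change of 0.30 ± 0.13, a fold of 1.23, had a 95% interval whose bounds were a fold of 0.999 and of 1.52, and a limma adjusted p of 0.315. This was the largest change in size among the members.

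Sirt6, a chromatin deacetylase known to hold back glycolysis genes, had log2 levels of 6.19, 5.76 and 5.85 in Tet2-deficient arrays and 5.84, 5.82 and 5.88 in wild-type arrays. The wild-type arrays spanned 0.054, while the Tet2-deficient arrays spanned 0.43 because replicate 1 stood above all others, and the groups overlapped. The log2 change was 0.09 ± 0.14 (limma adjusted p = 0.814), and without Tet2-deficient replicate 1 it was -0.04. Sirt7, which deacetylates histone H3 and acts at ribosomal DNA, had log2 levels of 5.50, 5.10 and 5.15 in Tet2-deficient arrays and 5.60, 5.20 and 5.52 in wild-type arrays. Each group held low and high arrays, and the means differed by less than the range within either group. Its log2 change of -0.19 ± 0.16 had a limma adjusted p of 0.614.

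Sirt2, the cytosolic sirtuin known as a deacetylase of tubulin and of p65, had log2 levels of 8.82, 8.57 and 8.70 in Tet2-deficient arrays and 8.54, 8.39 and 8.42 in wild-type arrays. The gap between the groups, from 8.57 to 8.54, was narrow beside the spread within either of them. The log2 change was 0.24 ± 0.12, a fold of 1.18 with a 95% interval of 0.980 to 1.43 (limma adjusted p = 0.371).

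The mitochondrial sirtuins showed no separation of the genotypes. Sirt3, the main deacetylase of the mitochondrial matrix, had log2 levels of 4.28, 3.82 and 3.92 in Tet2-deficient arrays and 4.12, 4.31 and 4.15 in wild-type arrays. Replicates 2 and 3 of the Tet2-deficient group lay below every wild-type array, while replicate 1 lay above 2 of the 3. The log2 change was -0.19 ± 0.15 (limma adjusted p = 0.593). Sirt5, which removes succinyl, malonyl and glutaryl groups, had log2 levels of 3.62, 4.00 and 3.62 in Tet2-deficient arrays and 3.60, 3.66 and 3.86 in wild-type arrays. Its log2 change of 0.04 ± 0.14 (limma adjusted p = 0.936) was the smallest in size. It changed sign in 3 of 13 alternative fits, some of which cannot alter a log2 change by construction. Both genes lay close to the median of all features (3.55), a range in which RMA values understate folds. Sirt4, the remaining mitochondrial sirtuin, is no member and was named after its values were seen: its log2 levels were 3.97, 4.44 and 4.03 in Tet2-deficient arrays and 4.47, 4.22 and 4.55 in wild-type arrays (log2 change -0.27 ± 0.16, limma adjusted p = 0.465).

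**Figure D2:**
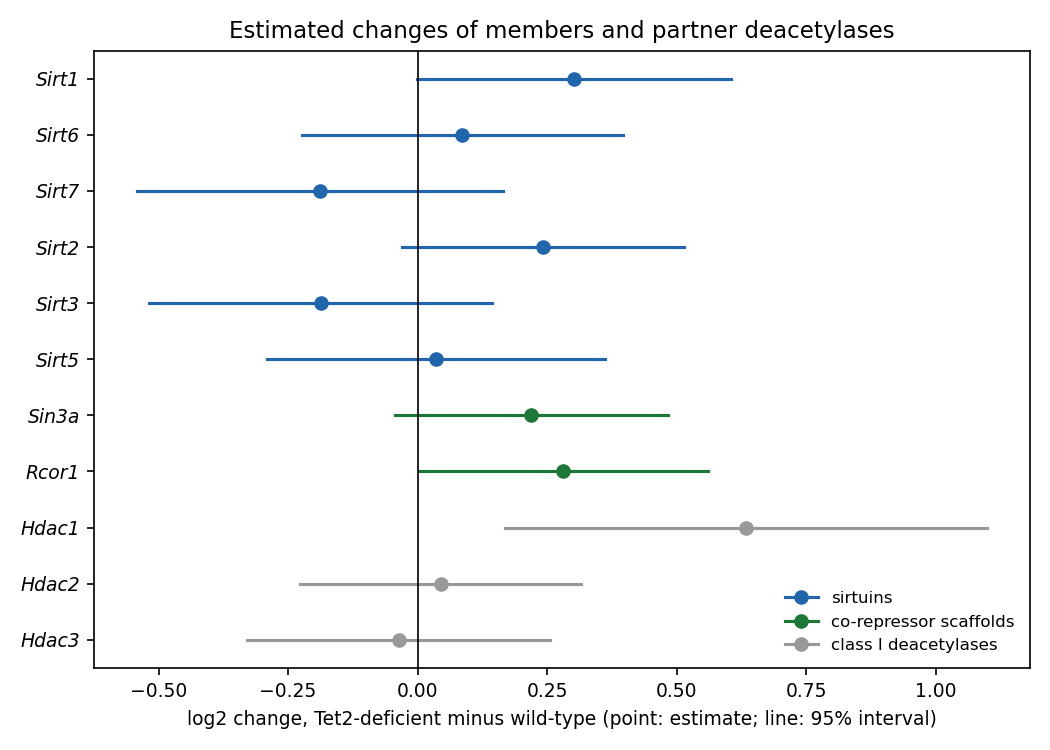
Log2 change (Tet2-deficient minus wild-type, horizontal axis) of each member and of Hdac1, Hdac2 and Hdac3, with points for the estimate and lines for the unadjusted 95% interval of the limma fit (n = 3 arrays each). The intervals of the 8 members lie between -0.54 and 0.60, and those of Rcor1 and Hdac1 do not include 0, although neither gene passed after adjustment.

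Of the co-repressor scaffolds, Rcor1 (CoREST) had log2 levels of 6.38, 6.50 and 6.61 in Tet2-deficient arrays and 6.19, 6.12 and 6.34 in wild-type arrays. The groups were set apart by the narrow step between 6.38 and 6.34. The log2 change was 0.28 ± 0.12, a fold of 1.22 with a 95% interval of 1.00 to 1.47, and the limma adjusted p of 0.307 was the lowest of the members. Sin3a, which also binds Tet1 and MAD-family repressors, had log2 levels of 6.27, 6.09 and 6.22 in Tet2-deficient arrays and 6.07, 5.90 and 5.95 in wild-type arrays. It too was higher in each Tet2-deficient array than in any wild-type array, by at least 0.025. The log2 change was 0.22 ± 0.12, a fold of 1.16 with a 95% interval of 0.970 to 1.40 (limma adjusted p = 0.407).

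The members differed in which array of a genotype was lowest. For Sirt1, Sirt2, Sin3a, Sirt6 and Sirt7, replicate 2 was the lowest array of both groups. Rcor1 was lowest in replicate 1 of the Tet2-deficient group and in replicate 2 of the wild-type group. Replicate numbers of different genotypes are not known to mark a shared day or litter.

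For the 3 members with the smallest p, the features nearest in pattern were found by root mean square distance over the 6 arrays, each gene centred on its own mean, among 10872 named features at or above the median level. Nearest to Rcor1 were Pcbp2 (distance 0.027 on the log2 scale), Clip1 and Cdc25a. Nearest to Sirt1 were Peli1 (0.030), Oxsr1 and Mphosph8. Nearest to Sirt2 were Klhdc3 (0.017), Dpysl2 and Puf60. The 9 genes had log2 changes between 0.23 and 0.34, and none of them passed the threshold in the limma fit (adjusted p = 0.236 to 0.407). With 6 arrays and so many candidates, a close match of this kind is a description only.

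The deacetylases that the scaffolds carry were read next. Hdac2, which both Sin3a and Rcor1 bind, had log2 levels of 6.32, 6.12 and 6.07 in Tet2-deficient arrays and 6.19, 6.07 and 6.12 in wild-type arrays (log2 change 0.05 ± 0.12, limma adjusted p = 0.897). Hdac1, its close relative in the same complexes, had 6.80, 6.11 and 6.49 in Tet2-deficient arrays and 5.55, 6.18 and 5.77 in wild-type arrays. Its log2 change of 0.63 ± 0.21 exceeded that of every member, but its lowest Tet2-deficient array lay below its highest wild-type array and the limma adjusted p was 0.179. Hdac3, the enzyme of the NCoR and SMRT complex, had 6.59, 6.20 and 6.39 in Tet2-deficient arrays and 6.41, 6.45 and 6.43 in wild-type arrays (log2 change -0.04 ± 0.13, limma adjusted p = 0.926).

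Of 22 measured genes of the Sin3 complex and its DNA-bound partners 0 rose and 0 fell, with a median log2 change of 0.03. The genes with the smallest p ran in both directions. Sap30, a subunit that helps hold Hdac1 in the complex, had log2 levels of 7.47, 7.24 and 7.52 in Tet2-deficient arrays and 8.13, 7.91 and 8.18 in wild-type arrays (log2 change -0.66 ± 0.13, limma adjusted p = 0.0553). Every Tet2-deficient array lay below every wild-type array by at least 0.38. Sap130, another subunit, had 6.99, 6.85 and 7.11 in Tet2-deficient arrays and 6.44, 6.36 and 6.49 in wild-type arrays (log2 change 0.55 ± 0.12, limma adjusted p = 0.0690), again without overlap. The scaffold-binding subunit Suds3 had a log2 change of -0.42 ± 0.12 and the MAX partner Mnt, a repressor that recruits Sin3 proteins, -0.39 ± 0.12 (limma adjusted p = 0.132 and 0.151). Groups did not overlap for 9 of the 22, with 3 higher and 6 lower in Tet2-deficient arrays, against 22.0% of all features in either direction and 31.1% of those at or above the median level. Sap30 passed the threshold in 4 of 13 alternative fits and Sap130 in 3.

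Among 14 measured genes of the CoREST complex and its partners 0 rose and 0 fell, with a median log2 change of 0.08. Hmg20b, a subunit of the Kdm1a complex, had log2 levels of 6.44, 6.41 and 6.37 in Tet2-deficient arrays and 6.73, 6.71 and 6.97 in wild-type arrays (log2 change -0.40 ± 0.12, limma adjusted p = 0.153). The co-repressor Ctbp1 had a log2 change of 0.37 ± 0.13, the DNA-bound repressor Rest 0.29 ± 0.14 and the paralogue Rcor2 -0.34 ± 0.17 (limma adjusted p = 0.206, 0.345 and 0.366), and Rcor2 had a mean level of 1.87, below the median of all features. Of 13 measured genes of the NCoR and SMRT complex and of factors that recruit it 0 rose and 0 fell, with a median of -0.03. The smallest p there belonged to the beta-propeller subunit Tbl1xr1 (log2 change 0.37 ± 0.16) and the heme-binding nuclear receptor Nr1d1 (0.36 ± 0.16), followed by the Notch effector Rbpj (-0.32 ± 0.15) and the demethylase Kdm4a (0.23 ± 0.12), with limma adjusted p of 0.307 to 0.408.

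**Figure D3:**
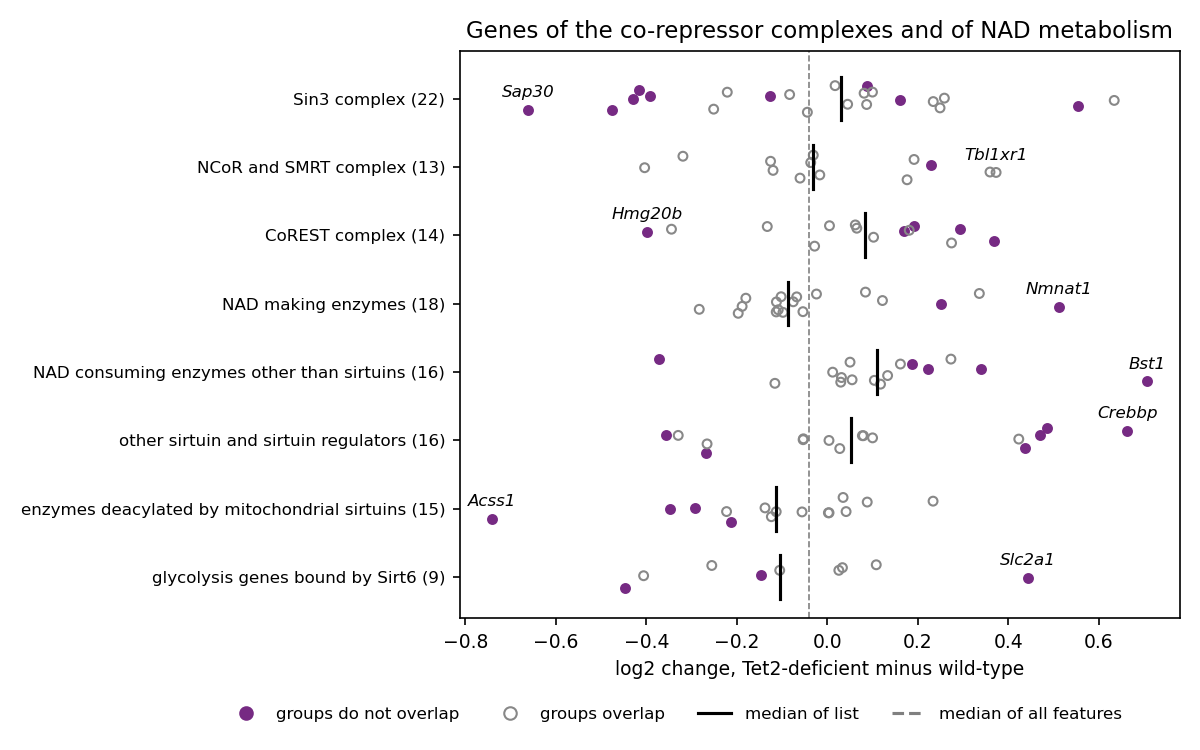
Log2 change (Tet2-deficient minus wild-type, horizontal axis) of each measured gene of 8 lists, with the number measured in brackets; filled points mark genes whose groups do not overlap, black bars the list median and the dashed line the median of all features (-0.04). The list medians lie between -0.11 and 0.11, and the named gene has the smallest p of its list.

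NAD+ is both the co-substrate of sirtuins and a metabolite that other enzymes use up. Of 18 measured genes of NAD+ synthesis 0 rose and 0 fell, with a median log2 change of -0.09. Nampt, the rate-limiting enzyme of the salvage route and named after its values were seen, was bright and flat, with 10.36, 10.40 and 10.41 in Tet2-deficient arrays and 10.39, 10.48 and 10.37 in wild-type arrays (log2 change -0.02 ± 0.11, limma adjusted p = 0.944). The nuclear enzyme Nmnat1, which makes NAD+ from the product of Nampt, had 5.45, 4.82 and 5.16 in Tet2-deficient arrays and 4.69, 4.49 and 4.71 in wild-type arrays (log2 change 0.51 ± 0.17, limma adjusted p = 0.176). Nadk, which phosphorylates NAD+, had a log2 change of 0.25 ± 0.12 (limma adjusted p = 0.338). The tryptophan dioxygenase Tdo2 (-0.20 ± 0.15) and the nicotinic acid enzyme Naprt (-0.18 ± 0.13) lay below the median level (limma adjusted p = 0.568 and 0.573).

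Among 16 measured enzymes that consume NAD+ or nicotinamide 0 rose and 0 fell, with a median log2 change of 0.11. Changes were above 0 for 14 of the 16, against 42.1% of all features and 49.1% of those at or above the median level. Several of them were far smaller than their standard errors, such as those of Parp12 (0.01 ± 0.13) and Parp9 (0.03 ± 0.11). In the list of NAD+ synthesis 5 of 18 changes were above 0, and over all 8 lists 66 of 123. Bst1 (CD157), a surface enzyme that cleaves NAD+, had log2 levels of 9.39, 9.63 and 9.32 in Tet2-deficient arrays and 8.78, 8.93 and 8.51 in wild-type arrays (log2 change 0.71 ± 0.15, limma adjusted p = 0.0608). Its groups were apart by 0.38, and it passed the threshold in 5 of 13 alternative fits. The interferon-inducible Parp14 (0.34 ± 0.14), Parp3 of DNA repair (-0.37 ± 0.15) and the nicotinamide methyltransferase Nnmt (0.22 ± 0.11) followed, with limma adjusted p of 0.253 to 0.368. Nnmt had a mean level of 2.51, below the median of all features.

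Of 16 measured genes in the list of Sirt4 and of regulators and partners of sirtuins 0 rose and 0 fell, with a median log2 change of 0.05. The acetyltransferase Crebbp, which opposes deacetylases, had log2 levels of 8.06, 8.22 and 8.48 in Tet2-deficient arrays and 7.77, 7.41 and 7.58 in wild-type arrays (log2 change 0.66 ± 0.15, limma adjusted p = 0.0728). The groups did not overlap for it, for its paralogue Ep300 (0.44 ± 0.15), for Elavl1, an RNA-binding protein known to stabilise Sirt1 mRNA (0.49 ± 0.11), or for Prkaa1, the catalytic subunit of AMP-activated kinase (0.47 ± 0.12), all higher in Tet2-deficient arrays (limma adjusted p = 0.188, 0.0800 and 0.106). In the same list, and named after their values were seen, the groups of the transcriptional repressor Hic1 (-0.36 ± 0.14) and of Rps19bp1 (-0.27 ± 0.11) did not overlap either, both lower in Tet2-deficient arrays (limma adjusted p = 0.239 and 0.284). That made 6 of 16 without overlap, against 22.0% of all features and 31.1% of those at or above the median level. Hic1 had a mean level of 2.50, below the median of all features.

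Of 15 measured mitochondrial enzymes that sirtuins are known to deacylate 0 rose and 0 fell, with a median log2 change of -0.11. Acss1, the mitochondrial acetyl-CoA synthetase that Sirt3 activates, had log2 levels of 6.24, 5.49 and 5.88 in Tet2-deficient arrays and 6.75, 6.54 and 6.55 in wild-type arrays (log2 change -0.74 ± 0.18, limma adjusted p = 0.0951). The fatty acid oxidation enzyme Acadl (-0.35 ± 0.11) and the complex I subunit Ndufa9 (-0.29 ± 0.13) were also lower in each Tet2-deficient array than in any wild-type array, whereas the groups of Shmt2 (0.23 ± 0.14) overlapped (limma adjusted p = 0.177, 0.299 and 0.463). With Acss1 and the ATP synthase subunit Atp5o (-0.21 ± 0.14, adjusted p = 0.515), named after its values were seen, 4 of 15 had groups without overlap, all lower, where 31.1% of features at or above the median level had such groups in either direction. Of 9 genes of glucose use tied to Sirt6 0 rose and 0 fell, with a median of -0.11. The glucose transporter Slc2a1 had a log2 change of 0.44 ± 0.15, the pyruvate dehydrogenase kinase Pdk1 -0.45 ± 0.17, Aldoc -0.41 ± 0.18 and Ldhb -0.26 ± 0.15 (limma adjusted p = 0.198 to 0.454). Aldoc and Ldhb had mean levels of 3.26 and 3.48, below the median of all features. Over the 8 lists, 0 of 123 measured genes passed the threshold, and 27 of them (22.0%) had an unadjusted p under 0.05. The share was 16.0% over all features and 24.0% over features at or above the median level, where 105 of the 123 genes lay. Groups did not overlap for 35 of the 123, with 19 higher and 16 lower in Tet2-deficient arrays. The shares in either direction were 22.0% of all features and 31.1% of those at or above the median level. That count was 5 of 14 for CoREST and 1 of 13 for NCoR and SMRT genes. It was 2 of 18 for NAD+ synthesis, 5 of 16 for NAD+ use and 3 of 9 for genes tied to Sirt6.

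**Figure D4:**
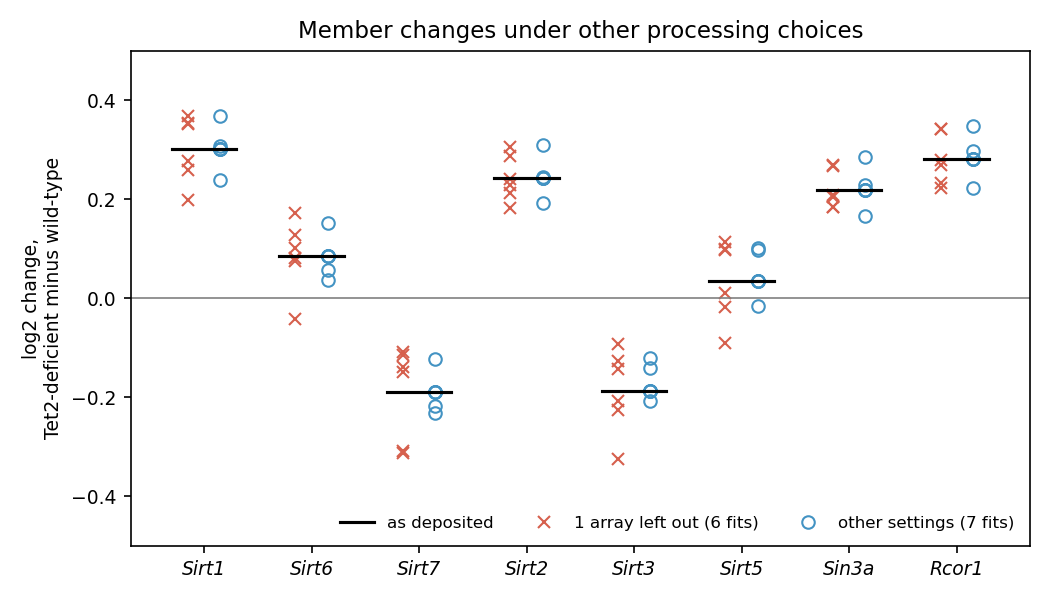
Log2 change (Tet2-deficient minus wild-type, vertical axis) of each member as deposited (black bar), with 1 array left out (crosses, 6 fits) and under the 7 other settings (circles). Sirt1, Sirt2, Sin3a and Rcor1 are above 0 in all 13 fits, Sirt3 and Sirt7 are below 0 in all, and Sirt5 and Sirt6 lie on both sides. Filtering features, the replicate block and the other variance prior leave the log2 change as deposited by construction, so these fits cannot change its sign.

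Across the 13 alternative fits the log2 change ran from 0.20 to 0.37 for Sirt1, from 0.22 to 0.35 for Rcor1, from 0.18 to 0.31 for Sirt2 and from 0.17 to 0.29 for Sin3a. It ran from -0.33 to -0.09 for Sirt3 and from -0.31 to -0.11 for Sirt7. Fits that filter features, block on replicate or change the variance prior cannot alter a log2 change, and add nothing to these ranges. The lowest adjusted p of any member in these fits was 0.174, for Rcor1 among features at or above the median level only. In that fit 3 of the 8 members (Rcor1, Sirt1 and Sirt2) had an adjusted p under 0.25, against 30.8% of the features tested. At their widest, the unadjusted 95% intervals of the 8 members reached down to a fold of 0.687, for Sirt7, and up to a fold of 1.52, for Sirt1.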

How the data were processed

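Total RNA of 6 macrophage cultures, 3 of each genotype and called biological replicates in the labels, was measured on 1 array each. The log2 values were used as deposited by the authors, who made them with RMA in affy 1.36.1, per the submitters' processing notes. The sources used here do not give the array type, the probe set definition or the genome build. Values ran from 0.35 to 12.7, and any 2 arrays differed in at least 99.7% of features. Since RMA sets all arrays to nearly 1 distribution, a shift shared by every gene would be hidden. Of 25206 features, 23185 had 1 symbol and 2021 none.

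Genotypes were compared in R 4.3.3 by a linear model with moderated variances (limma 3.58.1, lmFit and eBayes). P-values were two-sided, adjusted by Benjamini-Hochberg across the whole table, and called under 0.05. Intervals cover 95% and are unadjusted. Permuting 3 against 3 arrays gives no two-sided p under 0.1 and was not used. No depth applies to arrays, and their number limits precision. The fit was tested on simulated data over 25206 features: it called 65% of genes with a log2 change of 1 and 98% with a log2 change of 2. Changes as small as those of the members were not simulated, so the share called at their size is not known. Named were the members, Tet2, Hdac1, Hdac2 and Hdac3, up to 4 genes with the smallest p per list, and for 3 members the 3 nearest features. Members and lists were chosen with earlier results of these data known. Alternatives were other normalization between arrays, a filter on dim features, a replicate block, another variance prior, array weights, named features only, each array left out and other thresholds.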

Additional observations from a re-analysis of the deposited data

How the results depend on the processing

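No member passed an adjusted p of 0.05 in the limma fits under any of the 13 alternatives, nor at 0.1 or 0.25 in the fit as deposited. Direction changed for 2 members: with 1 array left out, Sirt6 ran from -0.042 (without Tet2-deficient replicate 1) to 0.17 and Sirt5 from -0.090 (without Tet2-deficient replicate 2; also -0.018 without wild-type replicate 1) to 0.11, and Sirt5 had -0.017 with array weights. Hdac2 ran from -0.029 (without Tet2-deficient replicate 1) to 0.095 and had -0.0098 with cyclic loess, and Hdac3 ran from -0.13 to 0.060 (without Tet2-deficient replicate 2) and had 0.029 with arrays centred on their medians. Centring arrays on their medians moves the log2 change of every gene by the same amount by construction. The cause of the other changes of direction was not tested.

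Of 25206 features 240 passed as deposited, 273 with arrays centred on their medians and 292 with cyclic loess. With a trended and robust prior 814 passed, and with array weights 498. Among features at or above the median level only, 846 of 12603 passed. With 1 array left out 11 to 155 passed, and at an adjusted p of 0.1 and 0.25 as deposited 791 and 3026. Listed genes passed under some settings where 0 passed as deposited. Among Sin3 genes there was 1 with cyclic loess, 2 among brighter features, 3 with the trended prior and 2 with array weights. Among NAD-consuming enzymes 1, Bst1, passed under each of 5 settings, the replicate block included (adjusted p = 0.0490). Among sirtuin regulators 3 passed among brighter features, 3 with the trended prior and 1 with array weights, and among mitochondrial enzymes 1 under each of the first 2 of these. The other named genes gave 22 calls in 462 fits. Most of them were named for a small p in these same data, which raises such a count.

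Deviations of same-numbered arrays correlated at 0.08, 0.19 and 0.02, and those of differently numbered arrays at -0.14 to 0.064. Not every array correlated best with its own number. With 3 arrays each these values cannot decide whether the numbers pair arrays, and the main fit used no pairing. With the replicate block 230 features and 0 members passed (Sirt1 adjusted p = 0.242). With 3 arrays each, standard errors of 0.12 to 0.16 for the members limit what could be detected.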
